A study of Mus musculus with 12 samples.

Results

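The 4 Egr transcription factors, Egr1, Egr2, Egr3 and Egr4, and their corepressors Nab1 and Nab2 were followed in nuclear RNA of sorted mouse hippocampal nuclei. The rows with these symbols were taken from the count table, which gave 6 genes of 24015 rows, and all 6 passed the filter on low counts that left 15668 genes to test. Egr1, Egr3 and Egr4 were highest in the libraries titled Reactivated, and Nab2 was highest in those titled Late. Egr3 did not pass the test in Reactivated against Early, nor Nab2 in Reactivated against Late. Egr2 and Nab1 passed in none of the 6 comparisons between groups.

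The mice carried ArcCreERT2, a Cre recombinase that acts only with tamoxifen and is driven by the activity gene Arc, and a floxed-stop yellow fluorescent reporter (eYFP) at R26R, so that cells with active Arc near the drug dose stay marked. Every group, Basal included, is of this cross, with the genotype given as +/+, and the sources used here give no age of the mice. The protocol gives 4-hydroxytamoxifen 1 h before contextual fear conditioning, darkness for 24 h before and 48 h after it, and collection at 1.5 to 2 h or on day 5, with renewed exposure to tone and context for some of the mice of the later day. Each of the 3 libraries of a group came from about 10000 nuclei of a pool of 10 to 12 mice, fixed and sorted with antibodies to NeuN, Arc and GFP. A replicate is therefore a pool, and p-values measure the spread between pools. The group names come from the titles alone, because the treatment field of all 12 libraries is identical and describes a foot shock without recall and collection on day 0. No label ties a sorting gate to a title, so the time and the sorted population of each group are not stated library by library. The part of the sort on Arc in the levels of the Egr genes and other activity genes was not tested.

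Egr proteins are zinc finger transcription factors that bind GC-rich DNA, and their genes are immediate early genes, transcribed within minutes of neuronal activity through serum response factor (SRF), its ternary complex partners and CREB. Nab1 and Nab2 have no DNA binding of their own; they bind Egr1, Egr2 and Egr3 and recruit repressive chromatin complexes, among them NuRD through its ATPase Chd4. Egr4 lacks the domain that Nab proteins bind, and Nab2 is itself described as a target of Egr proteins, which makes the pair a feedback loop.

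Promoter sequence is shown for Egr4 and Nab2, which differed between groups, beside Nab1, which did not pass in any comparison. RefSeq sequence of GRCm38.p6 was used for 4 of the 6 members. There were 5 windows for Egr2 and 1 each for Egr4, Nab1 and Nab2. No window of Egr1 or Egr3 was searched, so their promoters are not described. The 250 bases before the start are printed 5′ to 3′ on the strand of the gene, with matches on either strand in capitals. The motifs searched were the Egr site GCGTGGGCG, the CREB site TGACGTCA, its core TGACG (which lies within the CREB site), and the CArG box of SRF.
Egr4 (chr6:85513590-85513839, minus strand): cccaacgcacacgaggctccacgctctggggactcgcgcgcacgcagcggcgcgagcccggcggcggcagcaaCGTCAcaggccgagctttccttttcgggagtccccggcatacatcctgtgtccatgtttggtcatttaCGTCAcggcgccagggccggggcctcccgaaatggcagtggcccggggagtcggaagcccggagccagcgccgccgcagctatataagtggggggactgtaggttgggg
Nab2 (chr10:127666704-127666953, minus strand): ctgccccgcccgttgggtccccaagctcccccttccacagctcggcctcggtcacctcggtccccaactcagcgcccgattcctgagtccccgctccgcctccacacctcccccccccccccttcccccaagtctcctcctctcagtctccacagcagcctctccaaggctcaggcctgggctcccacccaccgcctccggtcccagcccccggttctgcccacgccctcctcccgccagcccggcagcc
Nab1 (chr1:52500449-52500698, minus strand): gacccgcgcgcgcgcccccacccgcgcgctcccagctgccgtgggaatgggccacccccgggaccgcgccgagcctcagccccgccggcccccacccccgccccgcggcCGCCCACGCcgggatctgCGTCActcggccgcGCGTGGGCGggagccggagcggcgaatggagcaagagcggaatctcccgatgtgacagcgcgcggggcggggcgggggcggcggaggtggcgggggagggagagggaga
The Egr4 window held the core TGACG 2 times, 177 to 173 and 109 to 105 bases before the start, and neither a CArG box nor an Egr site. The Nab2 window held no exact match to any of the 4 motifs, and near matches were not searched in any window. The Nab1 window held the Egr site 2 times, 141 to 133 and 109 to 101 bases before the start, and the core TGACG once. Among all 32851 windows of this length, 0.536% held the Egr site, 1.55% the CREB site, 17.8% the core TGACG and 1.47% the CArG box. Of the 5 Egr2 windows, 4 held a CArG box and 3 of these also held the core TGACG. These 3 windows overlap and hold the same CArG box and the same 2 copies of the core, so their matches are not separate. A match is a description of letters and not of binding.

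Total counts ran from 4838166 to 11120255 per library, and replicates were correlated across genes at r of 0.917 to 0.985. The precursor of ribosomal RNA, Rn45s, took 4.72% to 12.2% of the counts of Basal libraries and 6.23% to 12.9% for Early. It took 27.9% to 36.5% for Late and 18.8% to 27.7% for Reactivated, above every Basal and Early library. A fit with this share as a covariate therefore cannot tell the share apart from the group. A call that ends in such a fit does not show that the difference comes from Rn45s. All 4 neuronal markers (Rbfox3, Snap25, Syt1 and Map2) were detected in every group. So were all listed markers of glia and blood vessels, so detection cannot test the neuronal label. The neuronal markers summed to normalized counts of 9664 to 11405 for Basal and 12864 to 14670 for Early. They summed to 12048 to 12408 for Late and 14469 to 17203 for Reactivated. Their means stood in the order Basal, Late, Early, Reactivated, which is also that of Egr1. Snap25 rose 1.76-fold in Early and 2.21-fold in Reactivated against Basal. The neuronal subtypes differed between the groups. Markers of dentate granule cells summed to 10318 to 15230 in Basal and to 2031 to 4989 in the other groups, and 10, 9 and 10 of 11 fell in Early, Late and Reactivated against Basal. Markers of CA1 pyramidal neurons summed to 852 to 1269 for Basal, 2283 to 2453 for Early, 3346 to 4005 for Late and 3120 to 3803 for Reactivated, and 7, 8 and 8 of 8 rose. Interneuron markers summed to 4649 to 5734 in Basal and 2587 to 3884 elsewhere, and 4, 5 and 6 of 11 fell, while Npy rose in Early and Pvalb in Reactivated. No marker was at 0 in a whole group. The summed level of granule cell markers was thus higher in Basal than in the groups compared with it, and the part of these shifts in the results on the Egr and Nab genes was not tested. In bulk RNA, fewer cells of a type and less RNA per cell cannot be told apart.

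**Figure D1:**
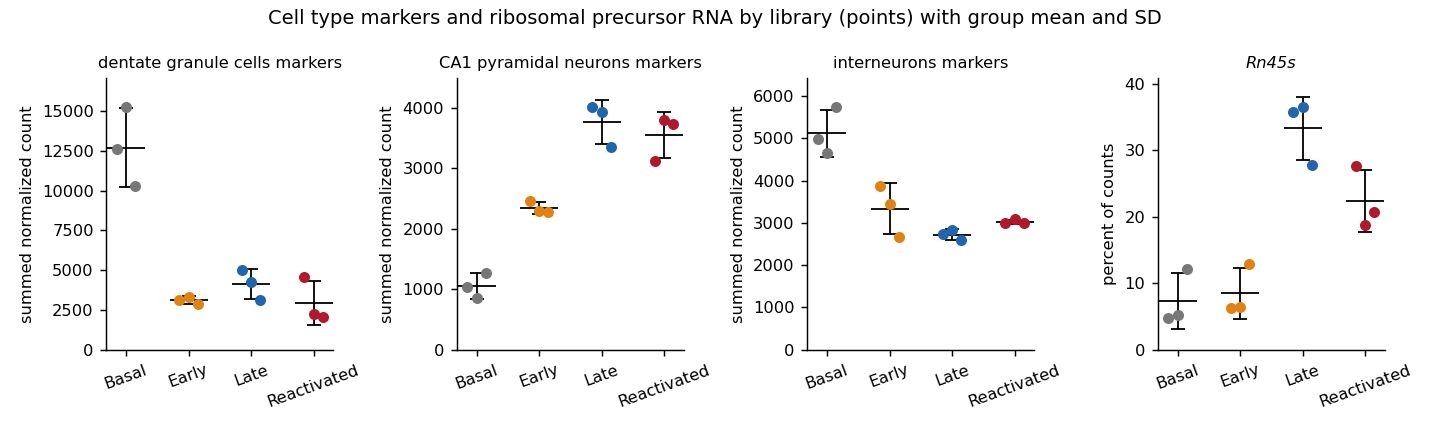
Summed normalized counts of granule cell, CA1 and interneuron markers and the percent of counts from Rn45s (vertical axes) in each of the 4 groups (horizontal axis). Points are libraries, lines are group means and bars are SD (n = 3). Granule cell and interneuron markers are highest in the 3 Basal libraries, CA1 markers are lowest there, and Rn45s is above 18% in every Late and Reactivated library.

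Levels are given as normalized counts, which are counts divided by the TMM effective library size relative to its geometric mean, with the libraries of a group in the order of their replicate number. Values after ± are SD over 3 libraries for levels and SE for log2 fold changes. Tests are the two-sided quasi-likelihood test of edgeR on all 12 libraries, adjusted by Benjamini and Hochberg over 15668 genes, and "rose" or "fell" means an adjusted p under 0.05. Early, Late and Reactivated are compared with the same 3 Basal libraries, so those comparisons are not independent of each other.

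Against Basal, 1 of the 6 genes rose in Early (Egr1), 3 in Late (Egr1, Egr4 and Nab2) and 4 in Reactivated (Egr1, Egr3, Egr4 and Nab2). Of all genes tested, 3.36% rose in Early, 25.4% in Late and 20.6% in Reactivated, and 2.66%, 23.7% and 18.8% fell. When Basal and Early alone were fitted with the replicate number as a block, a fit chosen after seeing the data, 17.3% of all genes passed in either direction and Egr1 was again the 1 gene of the 6. In Late against Early, Nab2 rose and Egr1 fell, where 22.0% of all genes rose and 20.3% fell. Against Early, 3 rose in Reactivated (Egr1, Egr4 and Nab2), where 13.5% of all genes rose and 12.7% fell. In Reactivated against Late, 3 rose (Egr1, Egr3 and Egr4), where 10.3% rose and 12.3% fell. The libraries of the compared groups did not overlap for 3, 4 and 5 of the 6 genes in Early, Late and Reactivated against Basal, beside 23.4%, 62.5% and 45.8% of all genes. They did not overlap for 3 of 6 in Late against Early, 4 of 6 in Reactivated against Early and 4 of 6 in Reactivated against Late, beside 59.9%, 39.1% and 39.7%. A joint test over the 4 groups called Egr1, Egr3, Egr4 and Nab2, which is 4 of 6 where 58.6% of all genes were called. Counts over so few genes lie near these shares in several comparisons and are read here gene by gene.

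**Figure D2:**
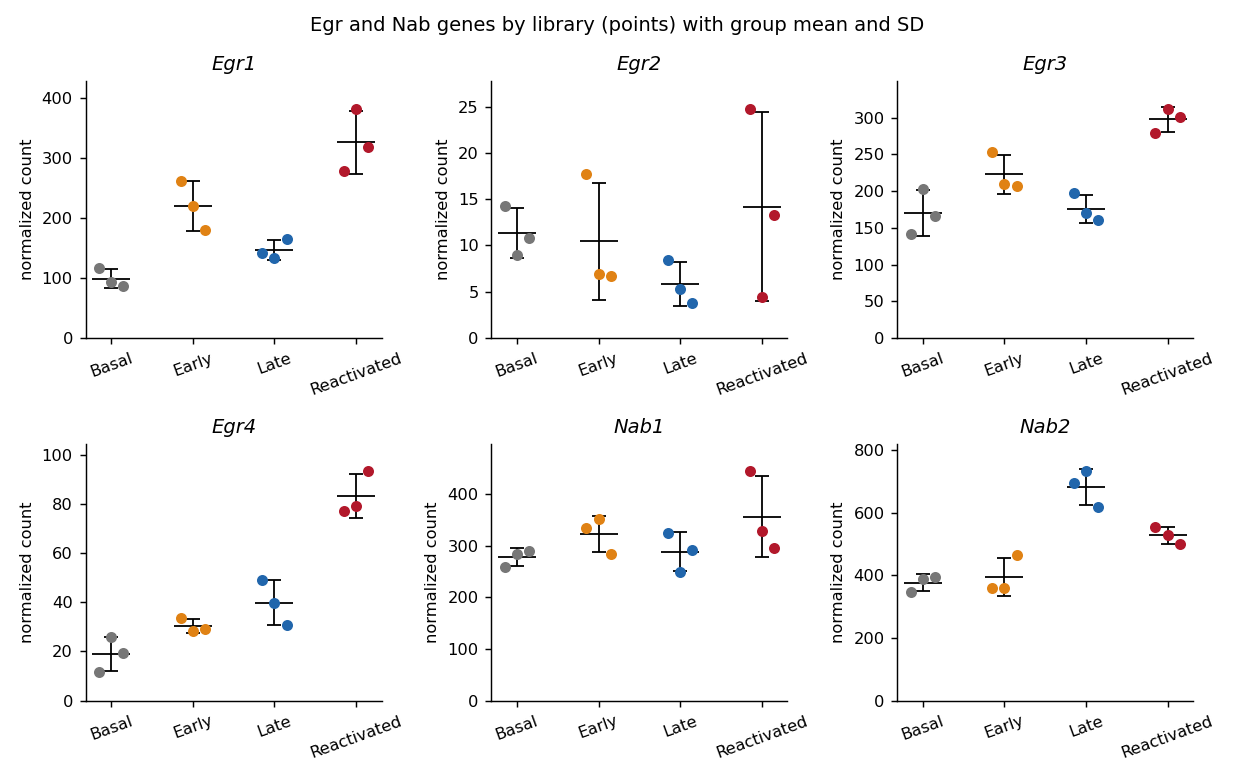
Normalized count (vertical axis, a scale of its own for each gene) of the 6 genes in the 4 groups (horizontal axis). Points are libraries, lines are group means and bars are SD (n = 3). Egr1 separates all 4 groups, Egr3 and Egr4 are highest in Reactivated, and Nab2 is highest in Late.

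Egr1, the most studied activity-induced factor of the family and widely used as a marker of active neurons, differed between every pair of groups. Its normalized counts were 117, 93.2 and 86.8 for Basal, 262, 219 and 179.6 for Early, 142, 133 and 165 for Late, and 278, 383 and 319 for Reactivated. No group overlapped another, and the order was Basal, Late, Early, Reactivated. Means were 98.9 ± 15.7 for Basal, 220.3 ± 41.2 for Early, 147 ± 16.5 for Late and 327 ± 52.8 for Reactivated. Egr1 rose 2.24-fold in Early (log2 fold change 1.16 ± 0.19, adjusted p = 0.00178), and 97.63% of all genes had a smaller log2 fold change. It rose 1.50-fold in Late (0.58 ± 0.20, adjusted p = 0.0229) and 3.33-fold in Reactivated (1.73 ± 0.19, adjusted p = 3.79e-05), where 73.79% and 96.98% of all genes had a smaller log2 fold change.

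Between the groups other than Basal, Egr1 was higher in Reactivated than in Late by 2.22-fold (log2 fold change 1.15 ± 0.19, adjusted p = 0.000455). It was 1.49-fold lower in Late than in Early (-0.58 ± 0.19, adjusted p = 0.0223), and 1.49-fold higher in Reactivated than in Early (0.57 ± 0.18, adjusted p = 0.0322). The calls of Egr1 in Early and Reactivated against Basal and in Reactivated against Late held under all 26 alternative analyses. The rise in Late ended without Basal 2 (log2 fold change 0.55), Basal 3 (0.49) or Late 3 (0.49), with a correction for GC content (0.21), with upper quartile scaling (0.36) and with no scaling (0.43). The lower level in Late than in Early ended without Early 1 (-0.44), Early 2 (-0.58), Late 1 (-0.55) or Late 2 (-0.52), and the value turned to 0.16 once the Rn45s share was a covariate. The difference between Reactivated and Early ended without Early 2 (0.57), Early 3 (0.43), Reactivated 2 (0.44) or Reactivated 3 (0.59), with the GC correction (0.23) and with upper quartile scaling (0.47).

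Egr3, a factor with nearly the same DNA recognition as Egr1 and a role in later phases of the activity response, was highest in Reactivated. Its normalized counts were 141, 203 and 166 for Basal, 254, 209 and 206 for Early, 197, 170.4 and 161 for Late, and 279, 312 and 301 for Reactivated. The Late libraries lay within the range of Basal, the Early libraries just above both groups, and the 3 Reactivated libraries above all others. The mean in Reactivated was 298 ± 16.7, against 170.3 ± 31.1 in Basal, 223 ± 26.6 in Early and 176 ± 18.8 in Late. Egr3 rose 1.75-fold in Reactivated against Basal (log2 fold change 0.81 ± 0.16, adjusted p = 0.00188) and 1.69-fold against Late (0.76 ± 0.16, adjusted p = 0.00391). It did not pass against Early (0.42 ± 0.16, adjusted p = 0.0672), nor in Early against Basal (0.39 ± 0.16, adjusted p = 0.231). In Late it stood at 0.04 ± 0.17 against Basal. With the Rn45s share as a covariate the call in Reactivated against Basal ended, although the log2 fold change was then larger, at 0.92. That call also ended with the same total for every library (0.32) and with no scaling (0.78).

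Egr4, the member that Nab proteins do not bind, had the largest fold change of the 6 genes against Basal in Late and in Reactivated. Its normalized counts were 11.7, 25.8 and 19.4 for Basal, 33.4, 28.3 and 29.2 for Early, 49.2, 39.6 and 30.8 for Late, and 77.1, 79.2 and 93.2 for Reactivated. Every library outside Basal lay above every Basal library, Early and Late overlapped, and every Reactivated library lay above all others. The raw counts behind these values were 9 to 105 reads, fewer than for Egr1 or Egr3, and the SE of its log2 fold changes was near 0.3. Egr4 rose 2.07-fold in Late (log2 fold change 1.05 ± 0.31, adjusted p = 0.0126) and 4.33-fold in Reactivated (2.12 ± 0.30, adjusted p = 0.000195), and 98.48% of all genes had a smaller log2 fold change in Reactivated. It also rose 2.75-fold in Reactivated against Early (1.46 ± 0.29, adjusted p = 0.00348) and 2.10-fold against Late (1.07 ± 0.29, adjusted p = 0.0145). In Early it was at 0.66 ± 0.31 against Basal and did not pass (adjusted p = 0.305).

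The longest Egr4 transcript has a GC content of 68.2%, above that of 99.8% of the genes with a value. With a correction for GC content the log2 fold change of Egr4 in Late was 0.11 and no longer passed, while that in Reactivated was 1.25 and did. In Reactivated against Early it was then 0.67 and did not pass, and once the Rn45s share was a covariate it was 1.39 and did not pass either. The call in Late also ended without Basal 1 (0.79) or Late 1 (0.87), and that in Reactivated against Late ended without Late 2 (1.06) or Late 3 (0.90).

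Egr2, known for its role in the myelin program of Schwann cells and induced by activity in some neurons, was at low counts in all groups. Its raw counts were 11, 8 and 15 for Basal, 17, 10 and 8 for Early, 7, 4 and 4 for Late, and 18, 5 and 15 for Reactivated. As normalized counts these were 14.2, 8.98 and 10.8 for Basal, 17.7, 6.90 and 6.68 for Early, 8.41, 5.28 and 3.74 for Late, and 24.8, 4.40 and 13.3 for Reactivated. The 3 Late libraries lay below the 3 Basal libraries and all other pairs of groups overlapped. The log2 fold change in Late was -0.96 ± 0.69 (adjusted p = 0.256), that in Reactivated 0.28 ± 0.62 (adjusted p = 0.749) and that in Early -0.14 ± 0.63 (adjusted p = 0.956). No difference of Egr2 passed at this depth, where the SE alone spans more than 1.5-fold. Scaled to the same total for every library, Egr2 in Late was at -1.80 against Basal and passed as lower.

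**Figure D3:**
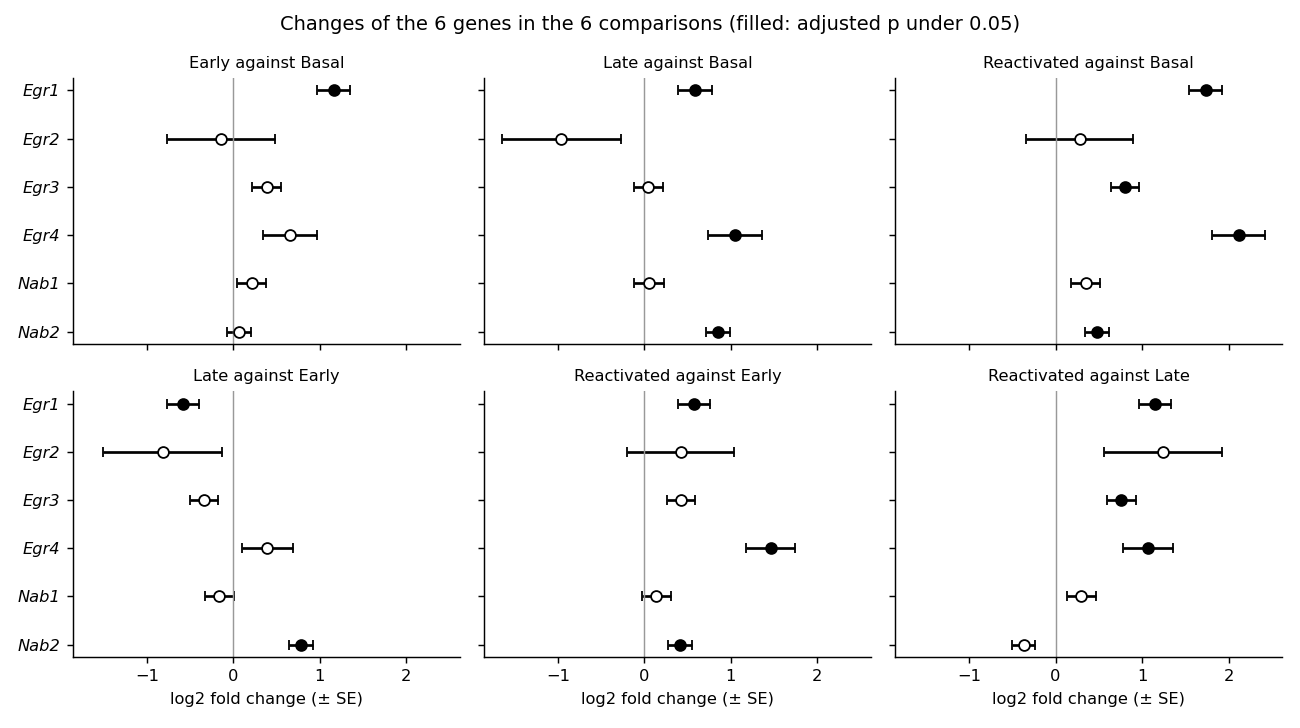
Log2 fold change (horizontal axis, first named group over second) of the 6 genes (vertical axis) in the 6 comparisons, with SE as bars from a fit to 3 libraries per group. Filled points passed at an adjusted p under 0.05. Egr1 is filled in all 6 panels, Egr2 and Nab1 in none, and Nab2 lies right of 0 in both Late panels against Basal and Early and left of 0, unfilled, in Reactivated against Late.

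Nab2, the corepressor that is itself induced by Egr factors in several cell types, had another order than the Egr genes. Its normalized counts were 346, 389 and 395 for Basal, 361, 361 and 464 for Early, 694, 733 and 620.0 for Late, and 555, 529 and 500.0 for Reactivated. Basal and Early overlapped, every Reactivated library lay above both, and every Late library lay above every Reactivated one. The means were 377 ± 27.0 for Basal, 395 ± 59.7 for Early, 682 ± 57.5 for Late and 528 ± 27.4 for Reactivated. Nab2 rose 1.81-fold in Late against Basal (log2 fold change 0.85 ± 0.14, adjusted p = 0.000183) and 1.72-fold against Early (0.79 ± 0.14, adjusted p = 0.000477). It rose 1.40-fold in Reactivated against Basal (0.48 ± 0.14, adjusted p = 0.0139) and 1.33-fold against Early (0.42 ± 0.14, adjusted p = 0.0396). Reactivated against Late was at -0.37 ± 0.14 and did not pass (adjusted p = 0.0684), though the libraries did not overlap.

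The order of the group means of Nab2 was also that of the Rn45s share. With the share as a covariate Nab2 in Late stood at 0.38 against Basal and did not pass, and with no scaling at 0.63, which did not pass either. Late against Early was at 0.37 with the covariate, 0.036 with the same total for every library and 0.33 with no scaling, and passed under none of these 3. Microglia markers, 7 in all, summed to 654 to 796 for Basal, 626 to 771 for Early, 5664 to 9733 for Late and 817 to 2044 for Reactivated, and of the 5 tested 3 rose and 2 fell in Late against Basal. Oligodendrocyte markers, 7 in all, summed to 1892 to 2413 in Basal and 4726 to 9952 in Late, where 3 rose and 4 fell. The part of these markers in the rise of Nab2 was not tested. The longest Nab2 transcript has a GC content of 60.1%, and with the GC correction Nab2 in Late stood at 0.31 against Basal, which passed, at 0.29 against Early, which did not, and in Reactivated at -0.0073 against Basal. The rise in Reactivated against Basal ended without Basal 1 (0.42), with the Rn45s covariate (0.13), with the same total after Rn45s was left out (0.25) and with no scaling (0.43). That against Early was at 0.12, 0.26 and 0.14 under these 3 settings and at 0.32 with upper quartile scaling, and did not pass. It also ended without Early 1 (0.35), Early 2 (0.35), Late 1 (0.42), Late 2 (0.42), Reactivated 1 (0.38) or Reactivated 2 (0.41).

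Exons of Nab2 overlap those of other genes on the opposite strand in the GENCODE M21 annotation, and no source used here states the strand setting of the counting. An antisense model shares 1050 of its 2941 exon bases, Nemp1 (listed under its older symbol Tmem194) shares 151 and Stat6, a transcription factor of cytokine signalling, shares 40. Reads from the shared bases cannot be assigned to Nab2 with certainty. Stat6 was at a mean normalized count of 54.5 in Basal and 48.1 in Late, with a log2 fold change of -0.15 ± 0.25 (adjusted p = 0.631). Tmem194 was at 73.3 in Basal and 98.4 in Late (0.43 ± 0.27, adjusted p = 0.199). No exon of the other 5 members overlaps another gene in that annotation.

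Nab1, the corepressor expressed in most tissues without induction, passed in no comparison with TMM scaling and without a correction. Its normalized counts were 259, 285 and 291 for Basal, 335, 351 and 284 for Early, 324, 249.7 and 292 for Late, and 445, 329 and 296 for Reactivated. The Reactivated libraries lay just above Basal, with Reactivated 1 apart from the other two, and all other pairs of groups overlapped. The largest log2 fold change was 0.35 ± 0.17 in Reactivated against Basal (adjusted p = 0.112), and in Late Nab1 was at 0.05 ± 0.17 (adjusted p = 0.813). With the GC correction Reactivated against Basal was at 0.46 and passed with edgeR (adjusted p = 0.0406). Scaled to the same total for every library, Nab1 passed as lower in Late, at -0.79 against Basal and -0.93 against Early, and as higher in Reactivated against Late, at 0.64. With Rn45s left out of that total, Late against Early was at -0.47 and passed as lower.

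Ratios of counts within a library do not depend on the scaling between libraries. The count of Nab2 over that of Egr1 was 2.97, 4.18 and 4.55 for Basal, 1.38, 1.64 and 2.59 for Early, 4.90, 5.50 and 3.75 for Late, and 2.00, 1.38 and 1.57 for Reactivated. All Early and Reactivated libraries lay below all Basal and Late libraries, with means of 1.87 ± 0.63 and 1.65 ± 0.31 against 3.90 ± 0.83 and 4.71 ± 0.89. Counts of different genes also carry their lengths, so the ratios are read between libraries and not as levels of one gene over the other.

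**Figure D4:**
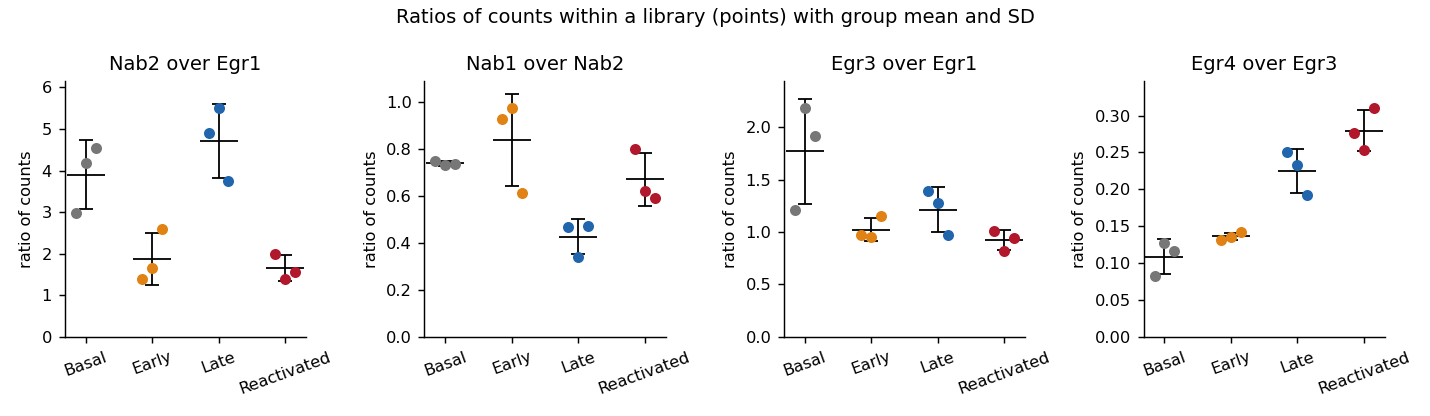
Ratio of the counts of a pair of genes within a library (vertical axis) in the 4 groups (horizontal axis). Points are libraries, lines are group means and bars are SD (n = 3). Nab2 over Egr1 is below 2.6 in every Early and Reactivated library and above 2.9 in every Basal and Late library.

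The count of Nab1 over that of Nab2 was 0.749, 0.732 and 0.735 for Basal, 0.928, 0.973 and 0.612 for Early, 0.467, 0.341 and 0.471 for Late, and 0.801, 0.622 and 0.591 for Reactivated. Late lay below every other group, while Early and Reactivated lay on both sides of Basal. The count of Egr4 over that of Egr3 was 0.0826, 0.127 and 0.116 for Basal, 0.132, 0.135 and 0.142 for Early, 0.250, 0.233 and 0.192 for Late, and 0.276, 0.254 and 0.310 for Reactivated. These 4 groups did not overlap and stood in this order. The ratios are not corrected for GC content, which was 68.2% for Egr4 and 51.3% for Egr3, and 60.1% for Nab2 and 47.2% for Nab1. With the GC correction the log2 fold change of Egr4 in Late against Early turned in sign, to -0.47. Whether the order of the ratios holds with that correction was not tested. The count of Egr3 over that of Egr1 was 1.21, 2.18 and 1.92 in Basal and 0.816 to 1.39 in the 9 other libraries, and Basal overlapped Late alone.

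Over the 12 libraries the log2 CPM of Egr1 was correlated with that of Egr3 at r = 0.85 and of Egr4 at r = 0.76, and Egr3 with Egr4 at r = 0.84. After subtraction of the group means these were 0.039, -0.37 and 0.90. Egr1 and Nab2 were at r = 0.13 over all libraries and -0.81 after subtraction of group means. Nab1 and Nab2 were uncorrelated over all libraries and at -0.11 after subtraction. These are descriptions over 12 libraries that share groups, depth and scaling.

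The genes with the pattern most like each member were taken by Pearson r of log2 CPM over the 12 libraries, among 13825 genes. For Egr1 these were Cpe (r = 0.99), a peptide-processing enzyme of secretory vesicles, the vesicle fusion proteins Snap25 (0.97) and Vamp2 (0.97), Uqcr11 (0.95), a small subunit of respiratory complex III, and Mif (0.95), a cytokine. Cpe stood at a mean normalized count of 962 for Basal, 2289 for Early, 1699 for Late and 3534 for Reactivated. For Egr3 they were Sostdc1 (0.92), Hint1 (0.92), Aen (0.92), Mif (0.91) and Wbp5 (0.91), and for Egr4 Tpi1 (0.94), a glycolytic enzyme, Pfdn5 (0.93), Nrgn (0.93), a postsynaptic calmodulin-binding protein, Nme1 (0.93) and Fscn1 (0.92). For Nab2 they were Zfp622, Sart3, Lmtk3, Pabpn1 and Zc3h18, with r of 0.98 to 0.99. When every library was scaled to one total these r of Nab2 were 0.056 to 0.20. For Nab1 the closest was Spats2l (0.92), then Pcsk6, Bmpr1b, Stx7 and Fkbp9 at 0.87 to 0.90. For Egr2 they were Caskin2, Socs5, Ets1, Psma2 and Zbtb14 at 0.87 to 0.89, on the low counts given above.

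Among 19 genes upstream of the Egr promoters (SRF and its coactivators, ternary complex factors, the ERK kinase pathway and CREB with its coactivators), more fell than rose against Basal. In Early 1 rose and 2 fell, in Late 4 rose and 11 fell, and in Reactivated 3 rose and 8 fell. Of all genes, 3.36%, 25.4% and 20.6% rose in these groups, and 2.66%, 23.7% and 18.8% fell. With Basal and Early fitted alone and blocked by replicate number, 2 rose and 5 fell in Early. The median log2 fold changes were -0.21, -0.41 and -0.41, beside 0.01, -0.03 and 0.02 over all genes. Srf itself, the factor that binds CArG boxes, rose 3.10-fold in Late (mean normalized count 747 against 239.9 in Basal, adjusted p = 2.51e-05) and was 1.88-fold lower in Reactivated than in Late (log2 fold change -0.91, adjusted p = 0.00525). Elk3, a ternary complex factor, fell 4.58-fold in Reactivated (35.9 against 168, adjusted p = 0.000105), and Map2k1, the kinase MEK1, rose 2.29-fold (635 against 277, adjusted p = 0.000329). These calls against Basal ended once the Rn45s share was a covariate, with log2 fold changes of 0.79 for Srf in Late and -1.08 for Elk3 and 0.73 for Map2k1 in Reactivated. With no scaling Srf in Reactivated against Late was at -0.78 and did not pass.

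Of 17 genes described as Egr targets in neurons, 15 were tested. In Early 3 passed, each higher, in Late 6 rose and 1 fell, and in Reactivated 7 rose and 2 fell. The medians were 0.13, 0.35 and 0.44. Of all genes, 3.36%, 25.4% and 20.6% rose in these groups, and 2.66%, 23.7% and 18.8% fell. In the blocked fit of Basal and Early, 4 rose and 1 fell. When every library was scaled to one total the medians in Late and Reactivated were -0.46 and -0.046, where those of all genes were -0.87 and -0.46. Arc, a synaptic protein, was at 145 for Basal, 435 for Early, 593 for Late and 660 for Reactivated. An antibody to Arc was used in the sort, so the level of Arc is a description only, although it is among the genes counted here and in the list of immediate early genes. The part of that sort in the levels of the other immediate early genes, the Egr genes included, was not tested. Syn1, a synaptic vesicle protein, rose 2.18-fold in Late (1675 against 768, adjusted p = 0.000106) and 2.50-fold in Reactivated (adjusted p = 0.000103), and it was the 1 target that rose in Reactivated against Early (1.65-fold, adjusted p = 0.00843). Psen2, a gamma-secretase subunit, rose 2.97-fold in Late (211 against 70.9, adjusted p = 0.000158). In Late against Basal the call of Syn1 ended with the covariate (0.40), with the same total for every library (0.28) and with no scaling (0.85), and that of Psen2 with the covariate (1.55). In Reactivated against Early, Syn1 was at 0.38 with the GC correction, 0.27 with the covariate, 0.34 with the same total, 0.47 with no scaling and 0.63 without Early 2, and passed under none of these. Fn1, an extracellular matrix protein, rose 4.57-fold in Early (810 against 176, adjusted p = 0.00784) and 7.13-fold in Reactivated (adjusted p = 0.000421). Of 5 myelin targets of Egr2, 3 were tested. Against Basal 0 passed in Early, 2 rose in Late and 1 rose in Reactivated, beside the shares of all genes given above. In the blocked fit of Basal and Early, 1 rose and 1 fell. Mbp, a protein of myelin sheaths that is also on the oligodendrocyte list, rose 1.59-fold in Late (1342 against 841, adjusted p = 0.0206). Its log2 fold change was at -0.18 when every library was scaled to one total, which ended the call. That call also ended with the covariate (0.33), with Rn45s left out of the total (0.30), with upper quartile scaling (0.44), with no scaling (0.47), and without Basal 2 (0.54), Late 1 (0.61) or Late 2 (0.67).

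Of the 14 NuRD genes, of the complex that Nab2 binds, 8 rose in Late against Basal, and 6 rose and 1 fell in Reactivated. Of all genes, 25.4% rose in Late and 20.6% in Reactivated, and 23.7% and 18.8% fell. In Early against Basal 0 passed with edgeR, DESeq2 or limma, and 1 had an unadjusted p under 0.05 with edgeR, while 2 rose in the blocked fit of Basal and Early alone. In Reactivated against Late 6 passed, each lower in Reactivated, where 12.3% of all genes fell. The median was -0.51 beside 0.03 over all genes. Chd5, a neuronal ATPase of the complex, rose 4.80-fold in Late (16690 against 3473, adjusted p = 2.09e-05), Mbd2, a reader of methylated DNA, rose 2.62-fold (adjusted p = 4.76e-05) and Mbd3 3.39-fold (adjusted p = 5.07e-05). Chd4, given here as the ATPase through which Nab2 reaches the complex and chosen after its values were seen, was at 2569 for Basal, 2647 for Early, 4312 for Late and 3010 for Reactivated. It rose 1.68-fold in Late against Basal (adjusted p = 0.00101; log2 fold change -0.093 when every library was scaled to one total) and was 1.43-fold lower in Reactivated than in Late (adjusted p = 0.0233). That difference ended without Late 1 (-0.54), Late 2 (-0.47) or Reactivated 3 (-0.44), and was at -0.16 with the same total. Rbbp4, a histone-binding subunit, was 1.87-fold lower in Reactivated than in Late (adjusted p = 0.000665), and with no scaling was at -0.75 and did not pass. Once the Rn45s share was a covariate no call of these in Late against Basal remained, with log2 fold changes of 0.69 for Chd5, 0.60 for Mbd2, 0.47 for Mbd3 and 0.085 for Chd4. When every library was scaled to one total, 3 of the 14 rose and 5 fell in Late, with a median of -0.36 where that of all genes was -0.87, and the median in Reactivated was -0.10 where that of all genes was -0.46.

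Other immediate early genes were counted beside the Egr genes. Of 23 listed, 21 were tested. Against Basal 7 rose and 2 fell in Early, 11 rose and 3 fell in Late, and 13 rose and 1 fell in Reactivated. The medians were 0.75, 0.52 and 1.21. Of all genes, 3.36%, 25.4% and 20.6% rose in these groups, and 2.66%, 23.7% and 18.8% fell. The median in Late was -0.29 when every library was scaled to one total, where that of all genes was -0.87. Nr4a1, an orphan nuclear receptor, rose 2.59-fold in Early (364 against 139.5, adjusted p = 0.000450) and was at 377 in Late and 447 in Reactivated. Fosb, an AP-1 factor, rose 6.15-fold in Late (133 against 21.5, adjusted p = 2.31e-06) and was 2.06-fold lower in Reactivated than in Late (adjusted p = 0.00467). Jun, another AP-1 factor, rose 2.28-fold in Reactivated against Late (362 against 158, adjusted p = 8.63e-05) and 1.91-fold against Early (adjusted p = 0.00163). Homer1, a postsynaptic scaffold gene, was 1.68-fold lower in Late than in Early (647 against 1089, adjusted p = 0.00165) and rose 1.66-fold in Reactivated against Late (adjusted p = 0.00367). Homer1 in Late against Early was at -0.063 with the GC correction and -0.59 with the Rn45s covariate, and did not pass under either. Jun in Reactivated against Early was at 0.93 with the covariate and 0.65 with no scaling, and Fosb in Reactivated against Late at -0.68 with the same total and -0.87 with no scaling, which ended these calls. Homer1 in Reactivated against Late was at 0.94 with no scaling and did not pass. In Reactivated against Late, 3 of these 21 genes rose and 1 fell, where 10.3% of all genes rose and 12.3% fell. Of the 4 Egr genes 3 rose there, while in Early against Basal Egr1 alone of them rose.

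The choice of scaling moved the values of the 6 genes with those of all genes. Scaling every library to the same total, which counts Rn45s, set the median of all genes at -0.87 in Late and -0.46 in Reactivated against Basal, and upper quartile scaling at -0.26 and -0.087. Relative to that median, Egr1 in Late stood at 0.61 with the same total and 0.62 with the upper quartile, Nab2 at 0.87 and 0.88, and Egr4 at 1.07 and 1.08. Relative to it in Reactivated, Egr1 was at 1.71 in both and Egr4 at 2.11 and 2.10. A scaling moves all genes of a library together, so values relative to the median stay close by construction. Their closeness therefore cannot tell which scaling is right. Without subtraction of the median, scaling to the same total put Egr1 in Late at -0.26, Egr3 at -0.81, Egr4 at 0.20 and Nab2 at 0.0045, so that the sign of Egr1 turned and the calls of Egr4 and Nab2 ended. Under that scaling 3 of the 6 genes passed as lower in Late, namely Egr3, Egr2 at -1.80 and Nab1 at -0.79, and 0 as higher. Egr1 and Egr4 in Reactivated were at 1.25 and 1.65 and passed.

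**Figure D5:**
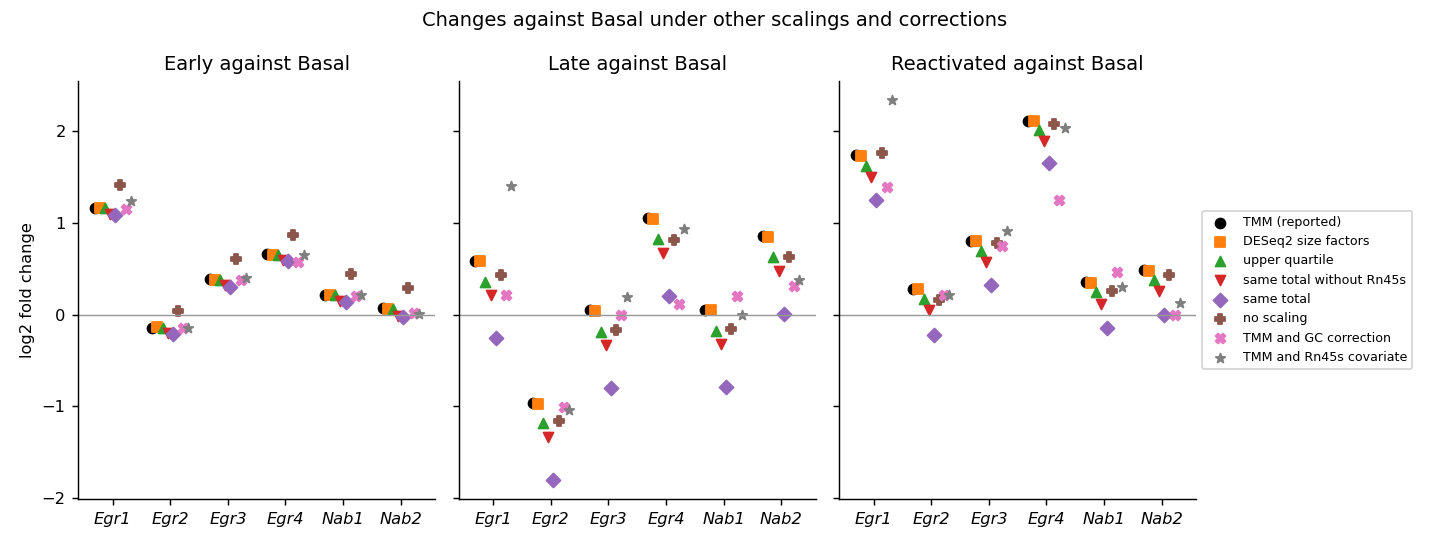
Log2 fold change against Basal (vertical axis) of the 6 genes (horizontal axis) in Early, Late and Reactivated under 8 scalings or corrections, marked by symbol. Each symbol is a fitted value from 3 libraries per group without an error bar. Symbols lie close together in Early and spread most in Late, where Egr1 runs from -0.26 with the same total to 1.40 with the Rn45s share as a covariate.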

How the data were processed

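Nuclear RNA of 12 libraries was read from the table that the authors deposited, which holds 1 count per gene symbol and library. Although its name says normalized, every value was a whole number, library totals ran from 4838166 to 11120255 and 0 whole numbers from 1 to 30 were missing, so the values were used as raw counts. The submitters' processing notes list Bowtie2 2.0, Cufflinks 2.2, DESeq2 and mm9 without their roles. How reads were counted, with which annotation and strand setting, is not given in the sources used here. Per the labels' protocols, libraries were made with a stranded kit and 15 PCR cycles, while the design text names SmartSeq2.

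Genes that reached 10 counts in 3 or more libraries were tested with the quasi-likelihood test of edgeR 4.0.16 (TMM scaling, R 4.3.3), fitted to the 4 groups together at a threshold of 0.05. For log2 CPM the prior count was 2. GC content came from the longest GENCODE M21 transcript of each symbol, for 15461 of 15668 genes (98.7%). The fit was tested on simulated data. In all, 26 alternatives were run, among them DESeq2 1.42.0, limma 3.58.1 with a pseudocount of 1, other scalings, a GC correction, the Rn45s share as a covariate and each library left out in turn. Libraries with the same replicate number were checked for shared deviations from their group means. In Basal and Early all 3 pairs were correlated above 0.1 (0.14 to 0.48), a pairing seen in the data and not stated by the labels, and in the other pairs of groups 1 of 15 was. The 6 genes and all lists were chosen with earlier results of these data known. All 6 members were named, with the 5 genes of the closest pattern for each and up to 3 genes per list and comparison by p-value among those that passed. Chd4, Stat6 and Tmem194 were added to these after their values were seen. The values of 1 gene that the naming rule selected are not reported here.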

Additional observations from a re-analysis of the deposited data

How the results depend on the processing

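Over the 6 genes and 6 comparisons, 26 alternatives gave 930 values. Of these, 46 turned in sign, and they were counted as such whether or not they also crossed the threshold. Among those that kept their sign, 804 stayed on their side of the threshold, 69 no longer passed and 11 newly passed. The calls of Egr1 in Early and Reactivated against Basal, of Egr4 in Reactivated against Basal and of Egr1 in Reactivated against Late held in all 26. Except where fewer libraries entered, the cause of a change was not tested. Egr2 rests on 4 to 18 counts per library.

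Counts of the 6 genes that passed, and of all genes, changed as follows. With the Rn45s share as a covariate 1 passed in Late against Basal, 0 in Late against Early, 2 in Reactivated against Basal and 1 in Reactivated against Early. The numbers of all genes were then 1484 in Early, 1191 in Late and 870 in Reactivated against Basal, 827 in Late against Early and 130 in Reactivated against Early, where the reported analysis had 944, 7687, 6169, 6628 and 4108. With no scaling 0 passed in Late and 2 in Reactivated against Basal, 1 in Late against Early, 0 in Reactivated against Early, 1 in Reactivated against Late and 2 in the joint test. The numbers of all genes were then 368, 4473 and 2264 against Basal, 1584 in Reactivated against Early and 1746 in Reactivated against Late, where the reported analysis had 3541. With the GC correction, with or without the replicate block, 1 passed in Late against Basal, 1 in Late against Early and 0 in Reactivated against Early. Scaled to the same total, 2 passed in Reactivated against Basal and 1 against Early. When Rn45s was left out of that total (chosen after seeing the data), 1 passed in Late against Basal, 4 in Late against Early and 1 in Reactivated against Early. In Reactivated against Early 1 passed with upper quartile scaling, and 1 with the fit of those 2 groups alone, where 2614 of all genes passed. With 1 library left out, 1 passed for Early, 2 to 3 for Late and 3 to 4 for Reactivated against Basal, 1 to 2 in Late against Early, 1 to 3 in Reactivated against Early and 2 to 4 in Reactivated against Late. The numbers of all genes were then 488 to 1224, 6102 to 8319, 4193 to 6613, 4781 to 7251, 1703 to 4602 and 2135 to 3827.

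Signs turned as follows, as log2 fold changes. Early against Basal was for Egr2 at 0.041 with no scaling, at 0.059 without Basal 3 and Early 3 together (chosen after seeing the data, for their Rn45s share) and at -0.72 to 0.099 with 1 library left out. For Nab2 it was at -0.031 scaled to the same total, -0.011 with Rn45s left out of that total, -0.020 without Basal 3 and Early 3, and -0.055 to 0.13 with 1 library left out. Late against Basal was for Egr1 at -0.26 scaled to the same total. For Egr3 it was at -0.00058 with the GC correction, -0.00055 with that and the replicate block, -0.81 with the same total, -0.33 with Rn45s left out of it, -0.19 with the upper quartile, -0.17 with no scaling, and -0.10 to 0.19 with 1 library left out. For Nab1 it was at -0.0090 with the Rn45s covariate, -0.79 with the same total, -0.32 with Rn45s left out of it, -0.18 with the upper quartile, -0.15 with no scaling, and -0.035 to 0.15 with 1 library left out. Late against Early was for Egr1 at 0.16 with the covariate, for Egr4 at -0.47 with the GC correction, -0.46 with that and the block, -0.38 with the same total and -0.054 with no scaling, and for Nab1 at 0.0066 with the GC correction and 0.0026 with that and the block. Reactivated against Basal was for Egr2 at -0.22 and for Nab1 at -0.14 with the same total, and for Egr2 at -0.34 to 0.73 with 1 library left out. For Nab2 it was at -0.0073 with the GC correction, -0.0064 with that and the block and -0.0024 with the same total. Reactivated against Early was for Egr2 at -0.014 with the same total and -0.19 to 1.00 with 1 library left out. For Nab1 it was at -0.29 with the same total, -0.033 with Rn45s left out of it, -0.18 with no scaling and -0.050 to 0.25 with 1 library left out, and for Nab2 at -0.028 with the GC correction and -0.030 with that and the block. Among list genes, Mbp in Late against Basal was at -0.18 with the same total, Prx at -0.29 with the covariate, and Syn1 in Late against Early at -0.13 with the covariate and -0.23 with the same total. Of the genes named beside the promoters and the NuRD complex, Late against Basal was with the same total at -0.093 for Chd4 and -0.43 for Tmem194, and for Stat6 at 0.68 with the covariate and -0.36 to 0.061 with 1 library left out.

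Higher genes were 51.8% of those that passed in Late against Basal, 13.4% with the same total, 29.8% with Rn45s left out of it, 37.1% with the upper quartile and 39.8% with no scaling. In Early against Basal they were 55.8%, and 43.3%, 44.9% and 76.6% with the same total, with Rn45s left out of it and with no scaling. In Reactivated against Basal they were 52.2%, and 17.5% and 33.2% with the same total with and without Rn45s. In Late against Early they were 51.9%, and 12.3% to 34.9% under these scalings and 67.5% with the covariate. In Reactivated against Early they were 51.6%, and 14.4% to 39.9% and 63.1%, and in Reactivated against Late 45.6%, and 58.7% to 78.1% with the same total, with Rn45s left out of it and with the upper quartile.

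With the replicate block in the fit of all libraries 1, 3 and 4 of the 6 genes passed against Basal, 2 in Late against Early, 2 in Reactivated against Early and 3 in Reactivated against Late, and 928, 7665, 6110, 6612, 4027 and 3467 of all genes. Among the 6 genes the 1 call that differs is Nab2 in Reactivated against Early, at 0.42 (adjusted p = 0.0506 with edgeR). As same-numbered libraries of Basal and Early deviated together, these 2 groups were also fitted alone with the replicate block (chosen after seeing the data), where 2717 of all genes passed and no call of the 6 genes changed. In the other pairs of groups same-numbered libraries correlated at -0.22 to 0.17, and no label states a pairing. Over all groups, Basal and Early included, 8 of 12 libraries correlated best with a library of their own number.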
